A study of Rattus norvegicus with 6 samples.

Results

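The RT1 complex is the major histocompatibility complex of the rat, and its probe sets were compared in the rostral ventrolateral medulla of 3 spontaneously hypertensive rats (SHR) and 3 Wistar-Kyoto rats (WKY, spelled Wistar-Kyoko in the labels). The members are all probe sets with a gene symbol that starts with RT1-, alone or within a list of symbols. There were 42 such sets among 31042 probe sets that were not array controls. They carried 27 distinct RT1 symbols, 21 of class I and 6 of class II, on 31 class I sets and 11 class II sets. No set mixed the classes. SHR are inbred rats with high blood pressure, and WKY are the normotensive rats usually set beside them. Neurons of this part of the brainstem drive sympathetic nerves. All 6 rats weighed 250 to 350 g and were untreated, and each Affymetrix Rat 230 2.0 array held RNA of 1 animal, so n counts animals.

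Class I molecules pair a polymorphic heavy chain with beta-2 microglobulin and display peptides from inside the cell to CD8 T cells and natural killer cells. The classical RT1-A genes are class Ia, and the many genes of the RT1-C/E, N, S, T24 and M groups are class Ib. Class II molecules pair an alpha with a beta chain, carry peptides from outside the cell to CD4 T cells, and are made mainly by antigen-presenting cells, which in brain include microglia and macrophages of the vessels and meninges. RT1-B corresponds to mouse I-A and RT1-D to mouse I-E, while RT1-DM helps load peptides onto both.

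Class I and class II promoters are known for different control elements. Class I promoters have an enhancer with a kappa B site and, downstream of it, an interferon response element. Class II promoters have an X box bound by regulatory factor X and a Y box with the letters CCAAT. RefSeq promoters on assembly GRCr8 were available for 21 of the 27 member symbols and run from 250 bases before to 50 bases after the gene start. They come from the reference rat and not from SHR or WKY. The sequences shown are those of RT1-CE16 and RT1-S3, the 2 genes with a single-symbol set called between strains and a promoter in the table, of RT1-A3 as a classical gene and of RT1-Da as a class II gene. Capitals mark matches to 4 motifs on either strand: GGGATTCCC (centre of the kappa B site), CCTAGNNAC (start of the X box), CCAAT, and GAAANNGAA (core of the interferon-stimulated response element). None of these matches overlap in the promoters shown. The interferon letters fix the order of their parts, GAAA before GAA, so the other order is not marked.
RT1-CE16: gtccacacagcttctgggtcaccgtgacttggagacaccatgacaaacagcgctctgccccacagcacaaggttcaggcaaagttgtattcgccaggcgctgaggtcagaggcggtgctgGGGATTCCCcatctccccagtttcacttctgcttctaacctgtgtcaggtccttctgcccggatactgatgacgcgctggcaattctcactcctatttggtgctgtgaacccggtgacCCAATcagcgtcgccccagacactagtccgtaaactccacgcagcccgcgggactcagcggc
RT1-A3: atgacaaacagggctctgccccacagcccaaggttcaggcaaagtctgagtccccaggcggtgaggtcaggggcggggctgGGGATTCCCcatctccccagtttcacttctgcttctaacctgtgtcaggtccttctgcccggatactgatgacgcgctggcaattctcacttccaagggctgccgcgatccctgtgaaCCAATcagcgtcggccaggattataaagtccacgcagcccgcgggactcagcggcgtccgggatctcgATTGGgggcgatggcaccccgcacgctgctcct
RT1-S3: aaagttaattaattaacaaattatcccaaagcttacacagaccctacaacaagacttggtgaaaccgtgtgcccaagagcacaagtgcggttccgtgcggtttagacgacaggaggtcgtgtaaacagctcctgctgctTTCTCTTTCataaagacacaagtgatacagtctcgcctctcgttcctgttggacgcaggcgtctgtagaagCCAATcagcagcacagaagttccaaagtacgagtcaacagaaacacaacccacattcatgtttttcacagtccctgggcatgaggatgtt
RT1-Da: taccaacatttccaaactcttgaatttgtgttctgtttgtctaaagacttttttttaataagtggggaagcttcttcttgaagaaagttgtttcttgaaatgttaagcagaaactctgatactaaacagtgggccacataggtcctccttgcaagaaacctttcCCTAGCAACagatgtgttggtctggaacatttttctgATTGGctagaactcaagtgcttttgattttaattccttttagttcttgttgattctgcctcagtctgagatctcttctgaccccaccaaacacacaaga

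The RT1-CE16 promoter lies on the minus strand at chr20:3265394-3265693 and RT1-A3 on the plus strand at chr20:4849201-4849500, both GRCr8. Both hold the kappa B letters, which start at base 121 in RT1-CE16 and at base 82 in RT1-A3. The RT1-S3 promoter, on the plus strand at chr20:2675278-2675577, holds the interferon element core at base 140 and CCAAT at base 211. The RT1-Da promoter, on the plus strand at chr20:4515165-4515464, holds the X box at base 165 and CCAAT, read on the other strand, at base 202.

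Over all 33469 promoters of the table, the kappa B letters occurred in 122, or 0.365%. Of 33 RT1 class I promoters 8 had them, those of RT1-A1, RT1-A2, RT1-A3, RT1-CE4, RT1-CE10, RT1-CE11, RT1-CE13 and RT1-CE16. Of 9 class II promoters, 0 had them. The X box letters occurred in 1453 promoters of the table, or 4.34%, with 2 of them class II (RT1-Da and RT1-DOb) and 2 RT1 class I (RT1-M1-5 and RT1-N3). CCAAT was found in 37.5% of all promoters, in 22 of 33 class I and in 9 of 9 class II promoters. The letters used for the interferon element core were found in 9.71% of all promoters and in 3 of the class I promoters, RT1-N3, RT1-S2 and RT1-S3. In RT1-CE16 and RT1-A3 the letters tttcacttc follow the kappa B letters. Read on the other strand they have GAA before GAAA, an order that the motif cannot match. The count therefore does not show that the other class I promoters lack the element. A match describes letters and is not evidence of a bound site, and no match says only that these letters are not in the window.

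The arrays were alike in overall signal. The share of probe sets called Present lay between 65.5% and 67.0% in SHR and between 64.8% and 65.7% in WKY. Arrays correlated at 0.97 to 0.98 within a strain and at 0.963 to 0.974 between strains, across probe sets. Sets with a Present call on 3 or more arrays were tested. The markers of the dissected region were measured: 9 of the 10 C1 neuron and hindbrain genes with a single-symbol set were tested, tyrosine hydroxylase (Th) and Pnmt of adrenaline synthesis among them. None of the 9 was called in limma, where 0.924% of all tested sets were, so a count of 0 says little. Of the 9, 7 lay below 0, with a median of -0.29. An unadjusted p under 0.05 (limma) was found for 3, all of them Hox genes that mark position along the hindbrain. Such p values were not counted over the whole array. Hoxb5 read 6.71, 8.55 and 7.51 in SHR, against 9.36, 9.22 and 8.75 in WKY, a difference of -1.52 ± 0.37 without overlap (adjusted p = 0.123, limma). Hoxa5 differed by -0.99 ± 0.32 and Hoxa4 by -0.35 ± 0.15, both with overlap. The part of dissection position in the RT1 values was not tested.

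RT1 sets were detected less often than the sets of the whole array. Of the 42 RT1 sets 22 were tested, or 52.4%, against 67.0% of all sets. Class I gave 17 of 31 and class II 5 of 11. Called Present on every array were 14 sets, and on none 13 sets. The 42 sets had 61 Present calls in SHR and 71 in WKY, of 126 possible in each strain. By animal, SHR had 20, 20 and 21 Present sets and WKY had 26, 22 and 23. WKY therefore had the higher number in each animal, though by 1 set at the closest.

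Between strains, 4 RT1 sets passed the test, 1 higher and 3 lower in SHR, and all 4 were class I. That is 18.2% of the tested RT1 sets, where 0.924% of all 20790 tested sets passed, 0.524% as higher and 0.399% as lower in SHR. Calls are at an adjusted p under 0.05 in limma with Benjamini-Hochberg adjustment over all tested sets. A log2 difference is SHR minus WKY, and its error is limma's standard error. Of the 22 tested RT1 sets 17 lay below 0, with a median of -0.45, beside a median of 0.0 over all tested sets. The 3 animals of one strain lay wholly above those of the other in 13 of the 22 RT1 sets, 10 of them lower and 3 higher in SHR, where 15% of all tested sets were so separated. The RT1 sets share arrays, sequence and a chromosome, so they are not independent of each other. In bulk tissue, fewer cells of a type and less RNA per cell cannot be told apart.

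**Figure D1:**
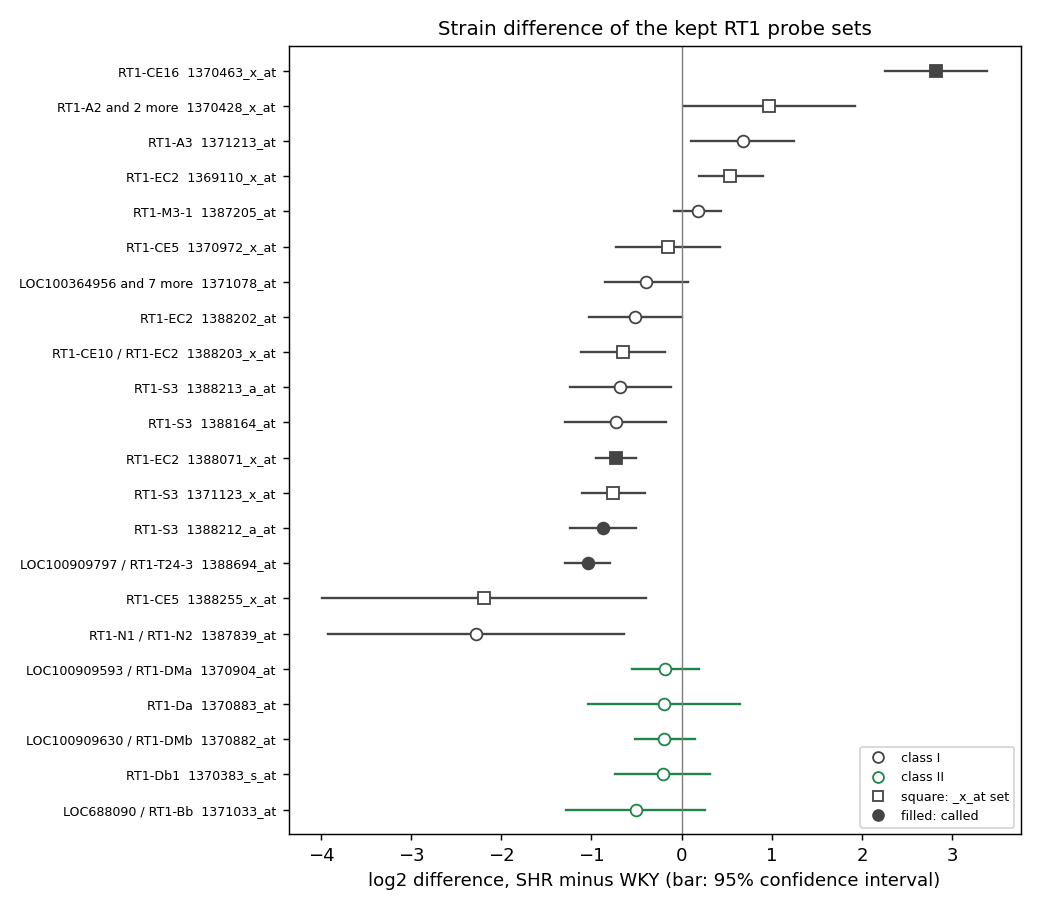
The log2 difference of each tested RT1 probe set, SHR minus WKY, with limma's 95% confidence interval. Each row is 1 set, squares are _x_at sets, filled symbols are called sets and green rows are class II. Class I runs from 2.82 to -2.28, while all 5 class II sets lie between -0.18 and -0.51.

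RT1-CE16, a class Ib gene of the C/E region, had the largest rise among RT1 sets. Probe set 1370463_x_at read 8.88, 8.48 and 8.72 on the log2 scale in SHR, against 6.35, 5.38 and 5.86 in WKY. Every SHR animal was more than 2 log2 units above every WKY animal. The set was Present in 3 of 3 SHR and in 1 of 3 WKY, so the WKY level is close to background and the fold is uncertain. The strain means were 8.69 ± 0.20 in SHR and 5.87 ± 0.49 in WKY (n = 3 each, ± SD). The difference was 2.82 ± 0.25, or 7.08-fold higher in SHR, with an interval of 2.26 to 3.39 and an adjusted p of 0.000451 in limma.

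The set was designed on a cDNA named RT1.A(n), a classical class I antigen, and aligned on the plus strand at chr20:7474624-7478013 (Rnor5.0) with an identity of 80.79% in the deposited annotation. Over all 42 RT1 sets that identity had a median of 94.19% and ranged from 52.71% to 99.73%. It was under 90% for 15 RT1 sets, or 35.7%, against 18.6% of the 29564 sets with an alignment. The signal therefore cannot be assigned to RT1-CE16 alone, and its part in RT1-A transcripts was not tested.

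Other sets at the same place gave other values. Probe set 1388071_x_at has an alignment whose span overlaps this span by 3312 bases, and it was lower in SHR. Such an overlap is counted from start to end with gaps included, so it does not count shared aligned letters. Probe set 1370428_x_at, which lists RT1-A2, RT1-A3 and RT1-EC2, has a second alignment inside it at chr20:7474912-7477604. It read 6.03, 5.32 and 6.16 in SHR, against 5.34, 4.32 and 4.92 in WKY. The strains overlapped, at 5.32 in SHR and 5.34 in WKY, and the difference of 0.97 ± 0.42 was not called (adjusted p = 0.503, limma). Probe set 1371267_at, which lists RT1-CE16 with 7 other symbols, was not tested and was Absent in all 3 SHR. It read 5.15, 5.13 and 5.52 in SHR, against 5.78, 6.76 and 6.18 in WKY.

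RT1-A3, a classical class I gene, is the symbol of 1 tested set, 1371213_at. The set was designed on an mRNA annotated as class Ib and aligned with an identity of 82.18%, so its signal cannot be assigned to RT1-A3 alone. It read 6.69, 6.92 and 7.22 in SHR, against 6.07, 6.10 and 6.63 in WKY. All SHR animals lay above all WKY animals by a narrow margin at the closest. The difference of 0.68 ± 0.26 did not pass the test (adjusted p = 0.421, limma). A companion set, 1388256_at, aligns to the opposite strand of the same place and was Absent on all 6 arrays.

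Sets with the single symbol RT1-EC2, a class Ib gene of the C/E region, gave values in both directions. Their alignments lie at several places on chromosome 20, with identities from 52.71% to 95.47%. Their signals therefore cannot be assigned to RT1-EC2 alone. Probe set 1388071_x_at, on the plus strand from chr20:7434359-7477935 (Rnor5.0), read 10.51, 10.32 and 10.74 in SHR, against 11.25, 11.28 and 11.21 in WKY. The strains were separate, and WKY animals differed by 0.07 at most. The means were 10.52 ± 0.21 in SHR and 11.25 ± 0.04 in WKY (n = 3 each, ± SD). The set fell by 0.73 ± 0.10 on the log2 scale, or 1.65-fold, with an interval of -0.95 to -0.50 and an adjusted p of 0.00727 in limma. Without the first WKY animal its adjusted p was 0.0542, and without the second 0.0586.

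The other 2 tested RT1-EC2 sets did not pass. Probe set 1369110_x_at, designed on the class Ib sequence RT1Aw2 and aligned on the minus strand at chr20:6754325-6973108, read 8.64, 8.15 and 8.35 in SHR, against 7.88, 7.89 and 7.73 in WKY. All SHR animals were the higher, with a difference of 0.54 ± 0.16, an interval of 0.19 to 0.90 and an adjusted p of 0.225 (limma). Probe set 1388202_at read 6.35, 6.30 and 6.36 in SHR, against 6.84, 6.64 and 7.09 in WKY, again without overlap but with SHR below. Its difference was -0.52 ± 0.23 (adjusted p = 0.516, limma).

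The 2 _x_at sets of RT1-EC2 thus lay on opposite sides of 0. Within an animal, the signal of 1388071_x_at minus that of 1369110_x_at lay between 1.87 and 2.39 in SHR and between 3.37 and 3.48 in WKY. The strain difference of this contrast was -1.27, with p = 0.1 in an exact 2-sided permutation test over animals. With 3 animals against 3 this is the smallest p possible, and over the 5 pairs of sets compared the adjusted value was 0.5. The spans of their alignments overlap in part: 1388071_x_at has a second alignment on the minus strand at chr20:6969068-7010620 with an identity of 90.56%. Its span, gaps included, overlaps that of 1369110_x_at by 4041 bases.

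Untested RT1-EC2 sets were 1370429_at, 1371111_at and 1371171_at. Probe set 1370429_at read 5.11, 2.96 and 3.78 in SHR, where it was Absent throughout, and 6.40, 5.96 and 6.13 in WKY, where it was Present in 2 of 3. The other two overlapped between strains. Probe set 1388203_x_at, shared by RT1-CE10 and RT1-EC2, read 6.75, 6.45 and 6.92 in SHR, against 7.28, 7.56 and 7.22 in WKY. Its strains were separate, with a difference of -0.65 ± 0.21, an interval of -1.12 to -0.18 and an adjusted p of 0.302 (limma).

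The 4 sets of RT1-S3 each read lower in SHR, with no overlap between strains in any. Their alignment identities ran from 70.4% in 1388164_at to 99.73%, with 86.8% in the called set. All but 1388164_at carry a cross-hybridisation note in the deposited annotation. The signals therefore cannot be assigned to RT1-S3 alone. RT1-S3 is a class Ib gene whose BM1 product is the rat counterpart of mouse Qa-1, a ligand of the CD94/NKG2 receptors of natural killer cells. Probe set 1388212_a_at, at chr20:5274811-5277798 on the plus strand, read 7.73, 7.92 and 8.09 in SHR, against 8.70, 9.08 and 8.56 in WKY. The means were 7.91 ± 0.18 in SHR and 8.78 ± 0.27 in WKY (n = 3 each, ± SD). This set fell by 0.87 ± 0.17 on the log2 scale, or 1.83-fold, with an interval of -1.24 to -0.50 and an adjusted p of 0.0433 in limma. The call was lost whenever any 1 animal was left out, with adjusted p from 0.0507 to 0.209.

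The other 3 RT1-S3 sets did not pass, though 1371123_x_at did under other settings. Probe set 1371123_x_at read 7.57, 7.59 and 7.96 in SHR, against 8.54, 8.47 and 8.37 in WKY, a difference of -0.76 ± 0.15 with an interval of -1.10 to -0.41 and an adjusted p of 0.0591 (limma). Its adjusted p in limma was 0.0493 with quantile normalization, 0.047 with median centring and 0.032 without the third SHR animal. Probe set 1388164_at read 7.51, 6.70 and 7.67 in SHR, against 7.78, 8.23 and 8.04 in WKY, a difference of -0.73 ± 0.25 (adjusted p = 0.347, limma). Probe set 1388213_a_at read 6.70, 7.49 and 7.77 in SHR, against 7.98, 8.10 and 7.91 in WKY, a difference of -0.68 ± 0.25 (adjusted p = 0.386, limma). The 4 sets overlap in their alignments, so they are not independent readings of the gene.

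The strain in which a probe set was designed differed among them. The called set was built on a BM1 sequence of strain DA, whereas 1371123_x_at and 1388213_a_at were built on a BM1 sequence annotated as strain SHR. Both sets built on the SHR sequence read lower in SHR, without overlap between strains. Probe letters and strain alleles were not used, and their part in the RT1-S3 values was not tested. Within animals, the called set minus 1371123_x_at, 1388164_at and 1388213_a_at differed between strains by -0.11, -0.14 and -0.19, with exact permutation p of 0.6, 0.8 and 0.5 and adjusted values from 0.75 to 0.8. The called set had the largest fall of the RT1-S3 sets, so each of these differences was below 0 by that choice. The smallest p possible here is 0.1, so the test cannot decide whether the strain difference depends on the set.

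**Figure D2:**
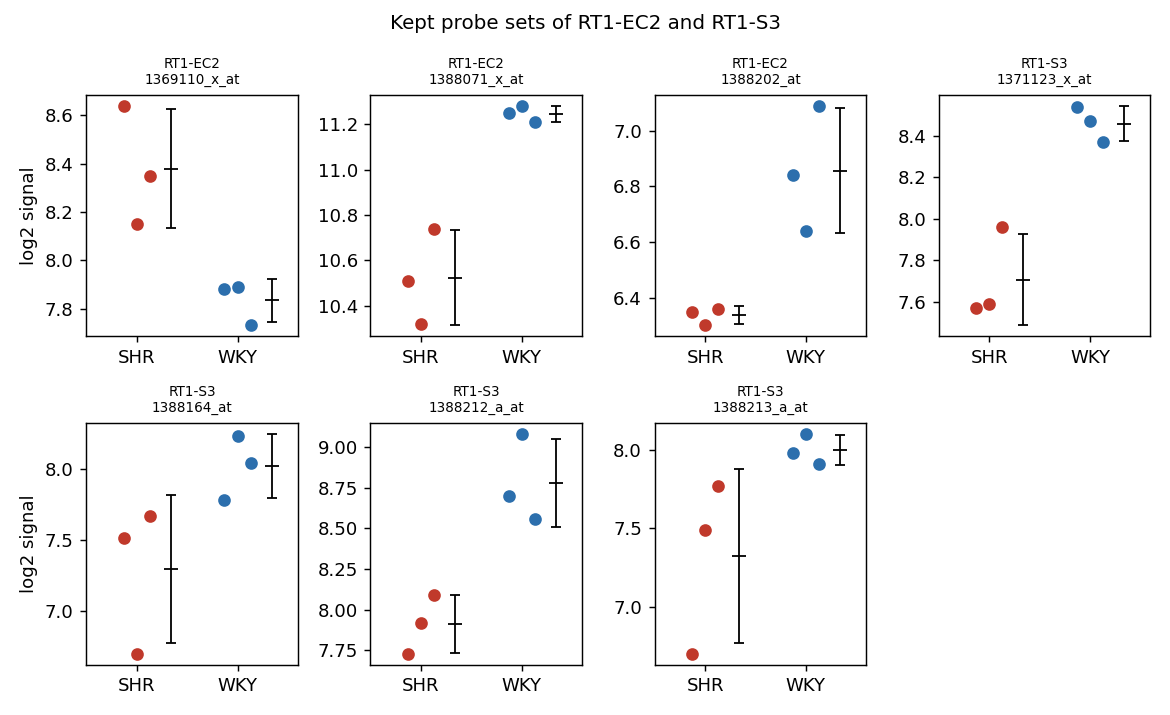
The log2 signal of each animal for the tested single-symbol sets of RT1-EC2 and RT1-S3, SHR left in red and WKY right in blue, with the strain mean ± SD as a black bar and an axis of its own for each set. SHR lies above WKY in 1369110_x_at and below WKY in the other 6 sets, without overlap in any.

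The set shared by RT1-T24-3 and LOC100909797 was lower in SHR. RT1-T24 genes are class Ib genes named for mouse H2-T24. Probe set 1388694_at, on the plus strand at chr20:5328394-5331856, read 8.93, 8.71 and 9.00 in SHR, against 9.98, 9.79 and 10.00 in WKY. The means were 8.88 ± 0.15 in SHR and 9.92 ± 0.12 in WKY (n = 3 each, ± SD). The set fell by 1.04 ± 0.11 on the log2 scale, or 2.06-fold, with an interval of -1.29 to -0.79 and an adjusted p of 0.00148 in limma. The gap between the highest SHR and the lowest WKY animal exceeded the spread within either strain. Probe set 1381029_at, whose alignment span overlaps that of 1388694_at by 2598 bases, was Present on 2 of 6 arrays and was not tested. It read 5.22, 5.89 and 5.90 in SHR, against 6.34, 4.99 and 5.82 in WKY, which overlapped.

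**Figure D3:**
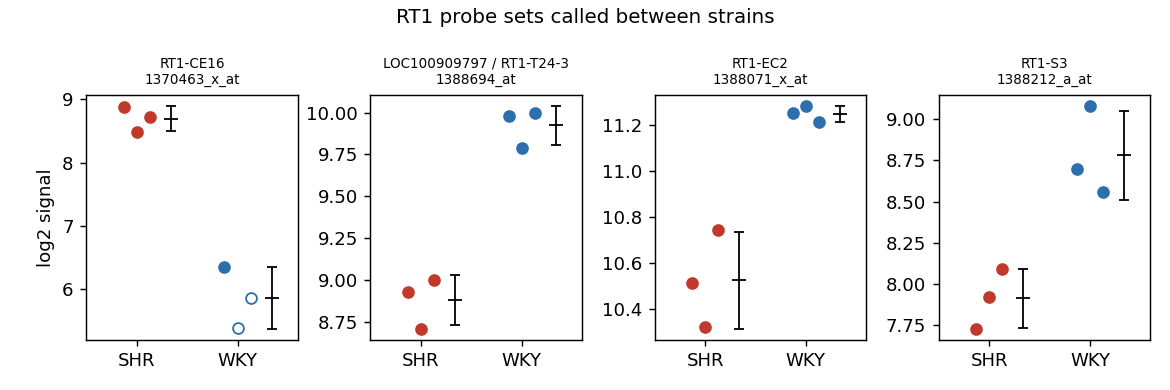
The log2 signal of each animal for the 4 RT1 sets called between strains, SHR left in red and WKY right in blue, with the strain mean ± SD as a black bar. Open circles are values not called Present, which occur only in WKY for 1370463_x_at, where SHR lies above WKY. In the other 3 sets SHR lies below WKY.

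Large differences in dim class I sets did not pass. Probe set 1387839_at, shared by RT1-N1 and RT1-N2 of the class Ib N group, read 2.21, 5.43 and 5.22 in SHR, against 6.66, 6.75 and 6.29 in WKY. SHR was below WKY in every animal, but only 1 of 3 SHR values was called Present. The difference was -2.28 ± 0.74, with an interval of -3.92 to -0.64 and an adjusted p of 0.29 (limma). Without the first SHR animal it was -1.24, and with a pseudocount of 64 it was -0.81. RT1-CE5, a class Ib gene, had set 1388255_x_at at 4.82, 1.48 and 4.33 in SHR, against 6.01, 5.23 and 5.96 in WKY, a difference of -2.19 ± 0.81 (adjusted p = 0.39, limma). The second SHR animal was the lowest there, while for the N set the first was. The other tested RT1-CE5 set, 1370972_x_at, overlapped between strains, with a difference of -0.15 ± 0.26.

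RT1-M3-1, the counterpart of mouse H2-M3, which displays formylated peptides, did not separate. It read 9.37, 9.43 and 9.73 in SHR, against 9.42, 9.35 and 9.23 in WKY, a difference of 0.18 ± 0.12 with an interval of -0.08 to 0.44 (adjusted p = 0.71, limma). Probe set 1371078_at, which lists 8 symbols, had a difference of -0.39 ± 0.21 (adjusted p = 0.616, limma). RT1-CE12 read 8.36 to 8.63 in SHR and 8.35 to 8.89 in WKY, yet it was Absent on all 6 arrays and was not tested. The remaining untested class I sets, of RT1-N3, RT1-M4 with RT1-M6-1, RT1-T24-4, RT1-CE5 and the RT1-A1, RT1-A2 and RT1-EC2 group, mostly lacked Present calls. Over the whole family 4 of 20 untested sets separated the strains, where 10.4% of all untested sets did, and in all 4 SHR was lower, where that share was 4.34%. They were 1370429_at, 1371209_at of RT1-CE5, 1371267_at and 1392334_at of RT1-Ba.

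No class II set passed the test, where 0.924% of all tested sets did. The 5 tested class II sets all lay below 0, with a median of -0.19 and a range from -0.51 to -0.18. Among them, the RT1-Db1 and RT1-Bb sets were Present in 1 of 3 SHR and in 3 of 3 WKY. Both therefore passed the filter through WKY, the strain where they read higher. Over all 11 class II sets 9 lay below 0 and 2 above, and those 2 were not tested. Of the 5, 0 separated the strains, where 15% of all tested sets did, and 0 had an unadjusted p under 0.05 in limma. At these shares, counts of 0 among 5 sets say little about class II. RT1-Da, the alpha chain of RT1-D, read 8.11, 6.36 and 7.74 in SHR, against 7.89, 7.48 and 7.42 in WKY. The second SHR animal was low and the other two SHR animals lay within or above the WKY values. Its difference was -0.19 ± 0.38, with an interval of -1.04 to 0.65 (adjusted p = 0.921, limma). RT1-Db1, the beta chain of RT1-D, read 6.49, 6.34 and 6.44 in SHR, against 6.86, 6.66 and 6.39 in WKY, a difference of -0.21 ± 0.24 with an interval of -0.74 to 0.31 (adjusted p = 0.844, limma). Another RT1-Db1 set, 1370382_at, was Absent on all 6 arrays and was not tested.

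The remaining 3 tested class II sets each carry a second symbol. The RT1-DMa set, shared with LOC100909593, read 8.19, 8.25 and 8.20 in SHR, against 8.04, 8.48 and 8.66 in WKY. The RT1-DMb set, shared with LOC100909630, read 7.91, 8.08 and 8.15 in SHR, against 8.34, 8.35 and 8.02 in WKY. Both overlapped, with intervals of -0.55 to 0.19 for RT1-DMa and -0.52 to 0.15 for RT1-DMb. Probe set 1371033_at, shared by RT1-Bb and LOC688090, read 6.54, 5.73 and 5.69 in SHR, where 1 of 3 was Present, against 7.04, 6.38 and 6.08 in WKY, where 3 of 3 were. Its interval of -1.28 to 0.26 reaches further with SHR lower than with SHR higher. RT1-Ba, the alpha chain of RT1-B, had 4 sets and 1 Present call in all, in WKY, so none was tested.

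RT1-Da was low in 1 animal, the second SHR animal, at 6.36 with 7.42 next lowest. The invariant chain Cd74, which escorts class II molecules to the compartment where peptides are loaded, was also lowest there. Cd74 read 8.21, 6.60 and 7.84 in SHR, against 8.11, 8.16 and 7.48 in WKY, a difference of -0.37 ± 0.36. Of the 11 class II sets 5 were lowest in this animal, as were 16.6% of all sets on the array. Of those 5 sets 3 were not tested, and RT1-Db1 was lowest by a narrow margin, at 6.34 with 6.39 next. RT1-DMa, RT1-DMb and the tested RT1-Bb set were not lowest there.

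Several marker lists were low in the same animal. The summed signal of 4 endothelial genes was 3267, with 4092 next lowest, and that of 6 astrocyte genes was 42700, with 48237 next. Gfap, the astrocyte filament gene, read 11.26 in this animal, with 12.45 next. The 11 microglia genes summed to 5241 with 5421 next, the 3 border macrophage and dendritic cell genes to 504 with 509 next, and the 20 antigen processing genes to 40200 with 41605 next. The sums of neuron, oligodendrocyte, C1 and hindbrain, and T and NK cell genes were not lowest there. Whether cell content moved the class II values in this animal was not tested.

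**Figure D4:**
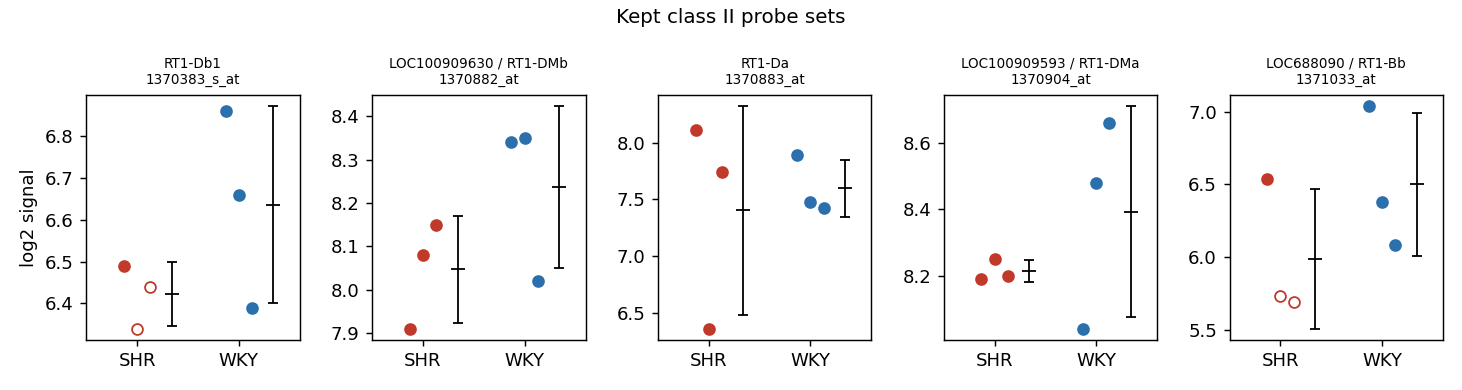
The log2 signal of each animal for the 5 tested class II sets, SHR left in red and WKY right in blue, with the strain mean ± SD as a black bar and open circles for values not called Present. The strains overlap in each set, and the low SHR point of RT1-Da is the second animal.

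Class I and class II sets were then set side by side. The 17 tested class I sets had a median of -0.65 and ran from -2.28 to 2.82, 12 of them below 0 and 13 with strains apart, whereas the 5 class II sets lay between -0.51 and -0.18. Their precision was alike, with a median standard error of 0.23 in class I and 0.24 in class II, both above the 0.15 of all tested sets. Class II also had 11 Present calls in SHR and 16 in WKY, of 33 possible in each. The difference between the classes was not tested.

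Calls came from several kinds of probe set. Affymetrix marks with _x_at the sets that hold probes shared with other sequences, with _s_at those shared between genes and with _a_at those shared between transcripts of a gene. The 8 tested _x_at sets had 2 calls, 1 in each direction, and these were the only 2 calls among the 128 tested _x_at sets of the array (1.56%). The 11 tested _at sets had 1 call, against 0.915% of all _at sets, and the 2 _a_at sets had 1, against 1.25%. The 1 tested _s_at set had 0, as had all 164 on the array. Medians were -0.40 over the _x_at, -0.39 over the _at and -0.77 over the _a_at sets.

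Sets with 1 symbol and sets with several were also set side by side. The 14 tested single-symbol sets had 3 calls and a median of -0.37, against 0.836% called among all single-symbol sets. The 8 tested sets with several symbols had 1 call and a median of -0.45, against 0.527%. The deposited annotation carries a cross-hybridisation note for 24 of the 42 sets, 14 of the 22 tested and 3 of the 4 called. Of the tested RT1 sets with an identity under 90%, 2 of 7 were called, and of those at or above it 2 of 15. Calls by note or by identity were not counted over the whole array, so these counts have no share to be read against.

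All 42 RT1 sets align to chromosome 20, and all but 3, which lie at chr20:155107-158878, fall within chr20:3856747-7478013 (Rnor5.0). In that stretch 95 tested sets carry no RT1 symbol. None of these 95 was called in limma, where 0.924% of all tested sets were, so few calls or none would be usual. The median difference over all 95 was -0.03, and 16 of the 95 had an unadjusted p under 0.05 (limma). On the rest of the chromosome 5 of 385 tested sets were called, or 1.3%, 4 of them higher in SHR. There, 53 of the 385 had an unadjusted p under 0.05 (limma). Such p values were not counted over the whole array, so the 16 and the 53 have no share to be read against.

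The genes that load the RT1 molecules were not called either. Of 29 antigen processing genes 26 had a single-symbol set and 20 were tested. Of these 20, 0 were called in limma, where 0.924% of all tested sets were, and 0 had an unadjusted p under 0.05. Below 0 lay 13 and above 0 lay 7, with a median of -0.03. B2m, the shared light chain of class I, read 13.36, 13.15 and 13.41 in SHR, against 13.46, 13.34 and 13.38 in WKY, a difference of -0.09 ± 0.07. Psmb9, an immunoproteasome subunit, read 7.43, 6.71 and 7.12 in SHR, against 7.60, 7.72 and 7.35 in WKY, a difference of -0.47 ± 0.22 (adjusted p = 0.557, limma).

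Tap2, a subunit of the peptide transporter, read 7.14, 7.07 and 7.21 in SHR, against 7.84, 7.06 and 7.71 in WKY, a difference of -0.40 ± 0.22 (adjusted p = 0.642, limma). The proteasome activators Psme2 and Psme1 had differences of -0.17 ± 0.10 (adjusted p = 0.64) and -0.15 ± 0.10 (adjusted p = 0.689, limma). Tap1 and Ciita, the class II transactivator, were not Present on enough arrays to be tested.

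Immune cell markers were mostly dim. Of the microglia list 11 of 12 measured genes were tested. Of these 11, 0 were called, where 0.924% of all tested sets were, so this count says little. Their median was 0.06, and their summed signal was 5241 to 6715 in SHR and 5421 to 5904 in WKY. Of border macrophage and dendritic cell genes 3 of 5 were tested, with sums of 504 to 771 in SHR and 527 to 618 in WKY. Of T and NK cell genes 1 of 9 was tested, with a signal of 49 to 61 in SHR and 30 to 109 in WKY, and Cd3d, Cd3e, Cd3g and Cd8a were among those not tested. Of B cell genes 0 of 2 were tested. The sums of all these lists overlapped between strains, while those of 6 oligodendrocyte genes did not, with 72968 to 78218 in SHR and 79098 to 85341 in WKY. The part of cell content in the RT1 values was not tested.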

How the data were processed

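RNA of 6 rats was measured on 6 arrays, grouped by the strain in the sample titles. The authors deposited a table of log2 signals with detection calls and a table of linear signal intensities, and MAS5, of a version not given in the sources used here, is named in the submitters' processing notes. This method averages perfect-match minus mismatch probe values, so signals near background are noisy. A probe set reads the letters of its probes, and those letters and the alleles of the 2 strains were not used here. The deposited log2 values equalled the log2 of the deposited intensities floored at 1, to within 8.2e-06. The 2% trimmed mean was 500.14 on each array, so arrays had been scaled before deposit.

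Probe sets Present on at least 3 of 6 arrays were kept, which left 20790. Strains were compared with limma 3.58.1 in R 4.3.3 (lmFit, eBayes with a variance trend, strain as the only factor), adjusted by Benjamini-Hochberg over all kept sets. Alignments are those of the deposited table on Rnor5.0. Promoters are RefSeq's on GRCr8, matched by symbol, with motif letters shortened after longer forms had been searched, and 36 of the 42 members had a gene ID in the RefSeq gene table. A list gene was read by its kept single-symbol set of highest mean signal.

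Values per animal are given for called RT1 sets, other kept sets of the same gene, and kept single-symbol sets of class II or RT1-A genes, with intervals for called sets and the 4 uncalled sets of smallest p. Values of other RT1 sets, and the intervals of class II and RT1-M3-1 sets, were chosen after they were seen. The RT1 members and the gene lists were chosen with earlier results of these data known. On simulated data for this comparison (20790 sets, 200 changed, 5 simulations) the test recovered 32.2% of changes of 0.5 on the log2 scale, 74% of 1 and 96.6% of 2, and 10.2% of calls were false. The number of arrays limits the precision.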

Additional observations from a re-analysis of the deposited data

How the results depend on the processing

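The alternatives tried were pseudocounts of 16 and 64, quantile normalization, median centring, no filter on Present calls, a filter of Present on all arrays, no variance trend, a robust fit, the replicate number as a block, leaving out _x_at and _s_at sets, and leaving out each animal. The RT1-CE16 set kept its call in all 14 alternatives that measured it, with differences of 1.95 to 3.07. The RT1-T24-3 set kept it in 16, with -1.11 to -0.95. RT1-EC2 set 1388071_x_at lost its call in 3 of 15 and RT1-S3 set 1388212_a_at in 9 of 16. The RT1 sets called higher in SHR numbered 0 with Present on all arrays and 0 without _x_at and _s_at sets, where the RT1-CE16 set was not tested. Without a variance trend the RT1 sets called lower numbered 1, class I calls 2 and calls over the array 63. Without _x_at and _s_at sets, class I calls numbered 2. Leaving out 1 animal gave 1 to 3 RT1 sets called lower, 2 to 4 class I calls and 78 to 205 calls over the array. Class II calls were 0 in each alternative. With quantile normalization and with median centring, RT1 sets called lower numbered 4 and class I calls 5, the added set being 1371123_x_at of RT1-S3. The class I median was -0.43 with a pseudocount of 64, and -0.76 to -0.50 with 1 animal left out, the value without the second SHR animal being -0.50. For the comparisons between probe sets of a gene, alternatives were chosen after seeing the data. With 1 animal left out, 1388212_a_at minus 1388164_at ran from -0.44 to 0.06, turning without the first SHR animal, and 1388212_a_at minus 1371123_x_at from -0.19 to 0.04, turning without the second WKY animal. For both, the cause was not tested. Deviations of same-numbered animals from their strain means correlated at 0.077, -0.01 and 0.066, where other pairs ran from -0.119 to 0.069. With 3 animals a strain this does not settle whether the numbers pair animals, and the main fit treated them as unpaired. With the replicate block, calls over the array numbered 196 and RT1 calls 3, with 1 higher and 2 lower, and the RT1-S3 set had an adjusted p of 0.0519 (limma). With 3 animals a strain, class II differences within the printed intervals remain possible.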
